A study of Mus musculus with 3 samples.

Results

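The genes described here are 7 genes of the sodium pump and of the potassium channels that work beside it in the basolateral membrane of kidney tubule cells: Atp1b1, Atp1b3, Fxyd2, Fxyd5, Kcnj10, Kcnj15 and Kcnj16. They were chosen by name, as the non-control probes whose gene name in the array files is one of the 7, which gave 12 probes of 41174 and 7 genes of the 19862 that the array names. The samples were mPTECs, an abbreviation that the labels do not spell out, from the kidneys of male mice aged 1 month. The day 0 sample was freshly isolated, and the day 1 and day 3 samples had spent 1 and 3 days on culture dishes in DMEM/F12 medium with insulin, transferrin, selenium, hydrocortisone and 1% FBS. Each day had 1 sample on 1 Cy3-labelled array, and the labels do not give a mouse strain, the number of animals behind a sample, or whether the 3 samples came from 1 isolation. Differences between days are therefore given without a test or a replicate error, and each fold describes these 3 arrays.

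The sodium pump sits in the basolateral membrane of the tubule cell, where it moves sodium out and potassium in, and the sodium gradient it makes drives the reabsorption of sodium, glucose, phosphate and amino acids from the tubule. A catalytic alpha subunit works with a beta subunit, which brings it to the cell surface, and FXYD proteins, small membrane proteins named after a shared sequence motif, bind the pair and adjust its affinity and rate. Potassium taken in by the pump leaves again through inwardly rectifying channels of the same membrane, a cycle known as pump-leak coupling. Kcnj16 encodes a channel subunit that joins with the Kcnj15 subunit in the proximal tubule and with the Kcnj10 subunit in the distal convoluted tubule. Inherited defects of KCNJ10 and of FXYD2 cause salt or magnesium wasting by the human kidney.

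The Fxyd2 probe reads the part of the transcript that gives the family its name, so it is shown whole as the array carries it, with the bases of the motif's codons in capitals. The motif takes up bases 20 to 31 of the 60 bases of the probe.

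Fxyd2 probe: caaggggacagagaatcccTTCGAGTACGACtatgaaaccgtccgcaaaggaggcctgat

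On mm9 the deposited position of this probe runs from 45216199 to 45216413 of chromosome 9, plus strand. That is 215 bases for a probe of 60, so it lies across at least 1 splice junction. The probe thus reads spliced Fxyd2 transcripts, in the part that encodes the signature motif.

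The 3 channel genes stood apart from the pump genes in every comparison with day 0, so the 250 bases before their transcript starts are shown, from RefSeq on GRCm38.p6, each on the plus strand. Kcnj16 has 4 listed starts and the first is given. The windows are chr1:172340960-172341209 for Kcnj10, chr16:95257308-95257557 for Kcnj15 and chr11:110967783-110968032 for Kcnj16. Capitals mark matches to any of 5 motifs, searched on both strands: the TATA box TATAAA, the CCAAT box CCAAT, the GC box GGGCGG, the AP-1 site TGANTCA and the glucocorticoid response element by its name alone. None of these motifs is contained in another.

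Kcnj10: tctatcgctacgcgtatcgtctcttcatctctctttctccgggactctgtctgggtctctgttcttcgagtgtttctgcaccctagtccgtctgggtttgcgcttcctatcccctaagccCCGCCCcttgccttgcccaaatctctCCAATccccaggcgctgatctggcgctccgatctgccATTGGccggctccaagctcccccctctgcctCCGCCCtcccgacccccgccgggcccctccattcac

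Kcnj15: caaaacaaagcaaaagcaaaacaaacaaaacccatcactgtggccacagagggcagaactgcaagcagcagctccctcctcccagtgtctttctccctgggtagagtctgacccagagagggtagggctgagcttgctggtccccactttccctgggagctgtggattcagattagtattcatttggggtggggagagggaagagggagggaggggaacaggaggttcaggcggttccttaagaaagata

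Kcnj16: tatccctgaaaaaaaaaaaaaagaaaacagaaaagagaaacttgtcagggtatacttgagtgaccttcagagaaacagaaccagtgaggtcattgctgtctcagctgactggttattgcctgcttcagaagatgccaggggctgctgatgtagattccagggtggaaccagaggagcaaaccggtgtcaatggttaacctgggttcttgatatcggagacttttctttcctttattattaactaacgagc

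The Kcnj10 window was 62.0% G or C with 17 CpG dinucleotides, against medians of 52.4% and 6 over the 32817 promoter windows of the table. It held 2 CCAAT boxes, at -104 and -67 from the start, and 2 GC boxes, at -130 and -36, and 33.8% and 32.7% of all windows hold at least 1 of each. The Kcnj15 window was 53.2% G or C with 1 CpG and matched none of the 5 motifs. The first Kcnj16 window was 42.8% G or C with 3 CpG and also matched none of them. Of the other 3 Kcnj16 windows, 1 held a TATA box, at -133, a motif present in 12.4% of all windows, and another held a CCAAT box at -60 and a GC box at -46. Neither the AP-1 site nor the glucocorticoid response element matched any window of the 6 members searched, all but Fxyd2, and 6.75% and 0.387% of all windows hold them. These matches describe letters only, and no binding was measured here.

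All 12 probes were well above background on each of the 3 arrays, none was saturated and none carried an outlier flag. Signals are given as the ratio of the processed intensity to the 75th percentile of the array, which was 1184, 1509 and 1515 intensity units on day 0, day 1 and day 3. Repeated spots of a probe on an array had a median SD of 0.14 in log2 signal, so a log2 ratio of 2 arrays carries a spread of 0.20 from the spots. Different probes of a gene differed by a median SD of 0.34 for the log2 ratio of day 1 to day 0, 0.47 for day 3 to day 0 and 0.27 for day 3 to day 1. These spreads cover measurement on the arrays and not the variation between animals or cultures. Because the labels do not spell out the cell type, 14 markers of the proximal tubule were read. All 14 were well above background on every array. Their summed ratio was 1237 on day 0, 213 on day 1 and 30.7 on day 3. Markers of other nephron segments were present on day 0 too, with summed ratios of 626 for 6 genes of the loop of Henle and 58.3 for 6 genes of the distal convoluted tubule. The median ratio on day 0 was 55.8 for the proximal tubule markers and 85.6 for those of the loop of Henle. These sums and medians come from different probes and different numbers of genes, so they do not rank the segments by amount.

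The arrays of day 1 and day 3 were each set against day 0, which asks where the pump and channel genes stood after the first day on a dish and after the longer culture. On both culture days the 3 channel genes were at least 7-fold below the fresh cells, and the 4 pump genes lay within 3-fold of them. Within the pump genes, Atp1b1 and Fxyd2 were lower in culture, and Atp1b3 and Fxyd5 were higher on their brightest probes. A difference was counted from 4-fold, a log2 ratio of 2. By this rule 3 of the 7 members were lower on day 1, against 5.15% of the 18905 genes tested, and 3 of 7 on day 3, against 7.95% of 19102. No member was 4-fold higher on day 1 or day 3, where 3.37% and 5.32% of all genes were. The median log2 ratio of the 7 members was -1.03 on day 1 and -1.44 on day 3, beside -0.11 and -0.10 for all genes. From 2-fold, 1 member was higher and 4 were lower on day 1, against 13.5% and 15.3% of all genes, and none was higher and 5 were lower on day 3, against 16.5% and 21.7%. In bulk RNA such as this, fewer cells of a type and less RNA per cell cannot be told apart.

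**Figure D1:**
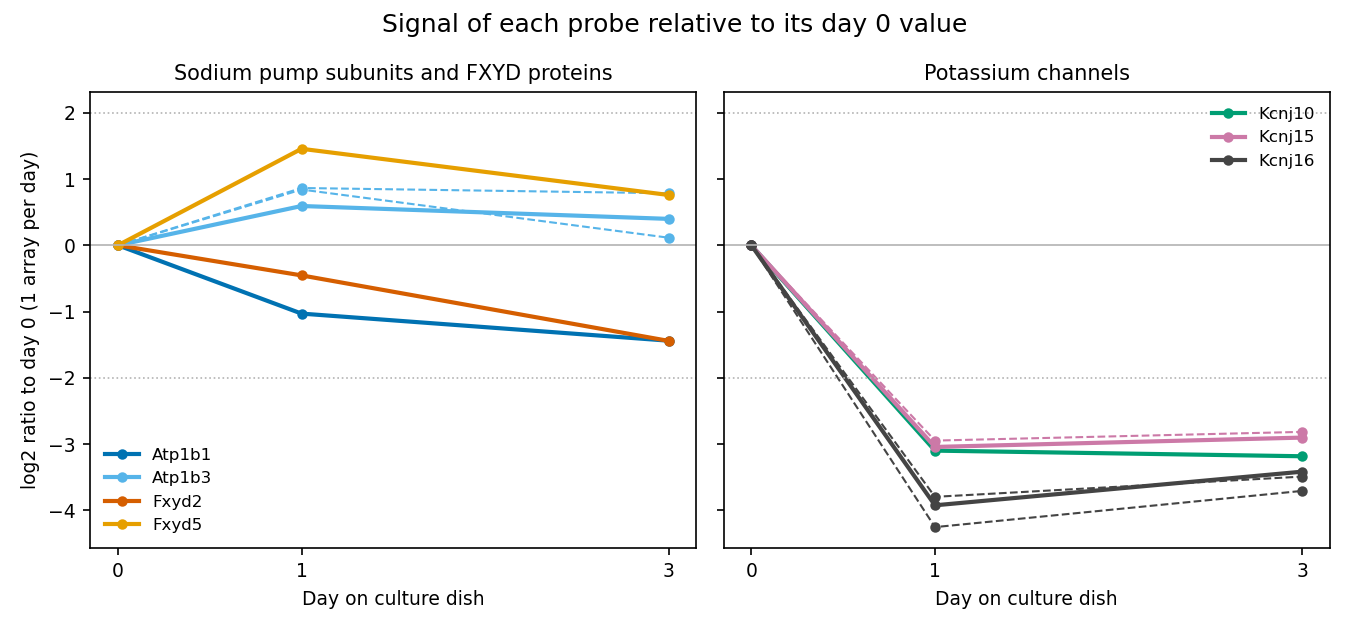
Log2 ratio of each probe to its own day 0 value (vertical axis) against the day on the culture dish (horizontal axis), for the pump genes on the left and the channel genes on the right. Each point is 1 array, solid lines are the brightest probe of a gene, dashed lines its other probes, and dotted lines mark 4-fold. All channel probes lie below the 4-fold line on days 1 and 3, and no pump probe does.

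Atp1b1 encodes the beta subunit that the kidney tubule uses most widely. Its signal was 69.6 times the 75th percentile on day 0, 34.1 times on day 1 and 25.7 times on day 3. It was thus highest in the fresh cells and 2.04-fold lower on day 1 and 2.71-fold lower on day 3, log2 ratios of -1.03 and -1.44. Between day 1 and day 3 the log2 ratio was -0.41, above the spread of 0.20 between spots, but -0.14 with scaling on the spike-in controls, below it. Of all genes tested, 14.7% were lower still on day 1 and 14.1% on day 3, so this gene lay well inside the range of the array. Its 1 probe maps to bases 166368263 to 166368322 of chromosome 1 on mm9, minus strand.

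Atp1b3 encodes another beta subunit, which can pair with the same alpha subunits. It was read by 3 probes, all on the minus strand of chromosome 9 on mm9. The brightest, at 96233316 to 96233375, gave ratios of 7.04, 10.6 and 9.28 on day 0, day 1 and day 3. The probe at 96233792 to 96233851 gave 6.86, 12.3 and 7.42, and the one at 96243700 to 96243759 gave 0.602, 1.10 and 1.04. On each of these probes the fresh cells were lowest and day 1 was highest. Day 1 was 1.51- to 1.82-fold above day 0 over the 3 probes. Day 3 was 1.08- to 1.72-fold above it, a range of 0.67 on the log2 scale that takes in almost no difference. With scaling on 12 reference genes the log2 ratio of the brightest probe on day 3 was -0.01 in place of 0.40, so the direction of Atp1b3 on day 3 depends on the scaling.

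The log2 ratios of the beta subunits lay 1.62 apart on day 1 and 1.84 apart on day 3, with Atp1b3 above Atp1b1. Relative to Atp1b1, Atp1b3 thus stood 3.08-fold higher on day 1 than on day 0 and 3.57-fold higher on day 3. This contrast is taken within an array and so does not move with its scaling. Over the 3 Atp1b3 probes it ran from 1.62 to 1.89 on day 1 and from 1.55 to 2.22 on day 3. It shows unequal change of the pair, and levels of different probes were not compared.

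Fxyd2, the gamma subunit of the pump, is the FXYD protein best known from the kidney tubule. Its probe gave 78.9 times the 75th percentile on day 0, 57.6 times on day 1 and 29.0 times on day 3. Fxyd2 was lower on each later array: 1.37-fold below day 0 on day 1, log2 ratio -0.45, and 2.72-fold below it on day 3, log2 ratio -1.44. More of that difference lay after day 1, where the log2 ratio of day 3 to day 1 was -0.99, the lowest of the 7 members. On day 3 its log2 ratio and that of Atp1b1 were both -1.44, although on day 1 they were -0.45 and -1.03.

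Fxyd5, also called dysadherin, is a FXYD protein known for modulating cell adhesion as well as the pump. It gave 0.809 times the 75th percentile on day 0, 2.22 times on day 1 and 1.37 times on day 3, from a probe at 31817824 to 31817883 of chromosome 7 on mm9, minus strand. Day 1 was the highest of the 3 arrays, 2.74-fold above day 0, and day 3 lay between them at 1.69-fold above day 0. The log2 ratios were 1.46 and 0.76, and 7.25% and 21.5% of all genes stood higher. Relative to Fxyd2, Fxyd5 was 3.76-fold higher on day 1 than on day 0 and 4.60-fold higher on day 3, differences of log2 ratios of 1.91 and 2.20.

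**Figure D2:**
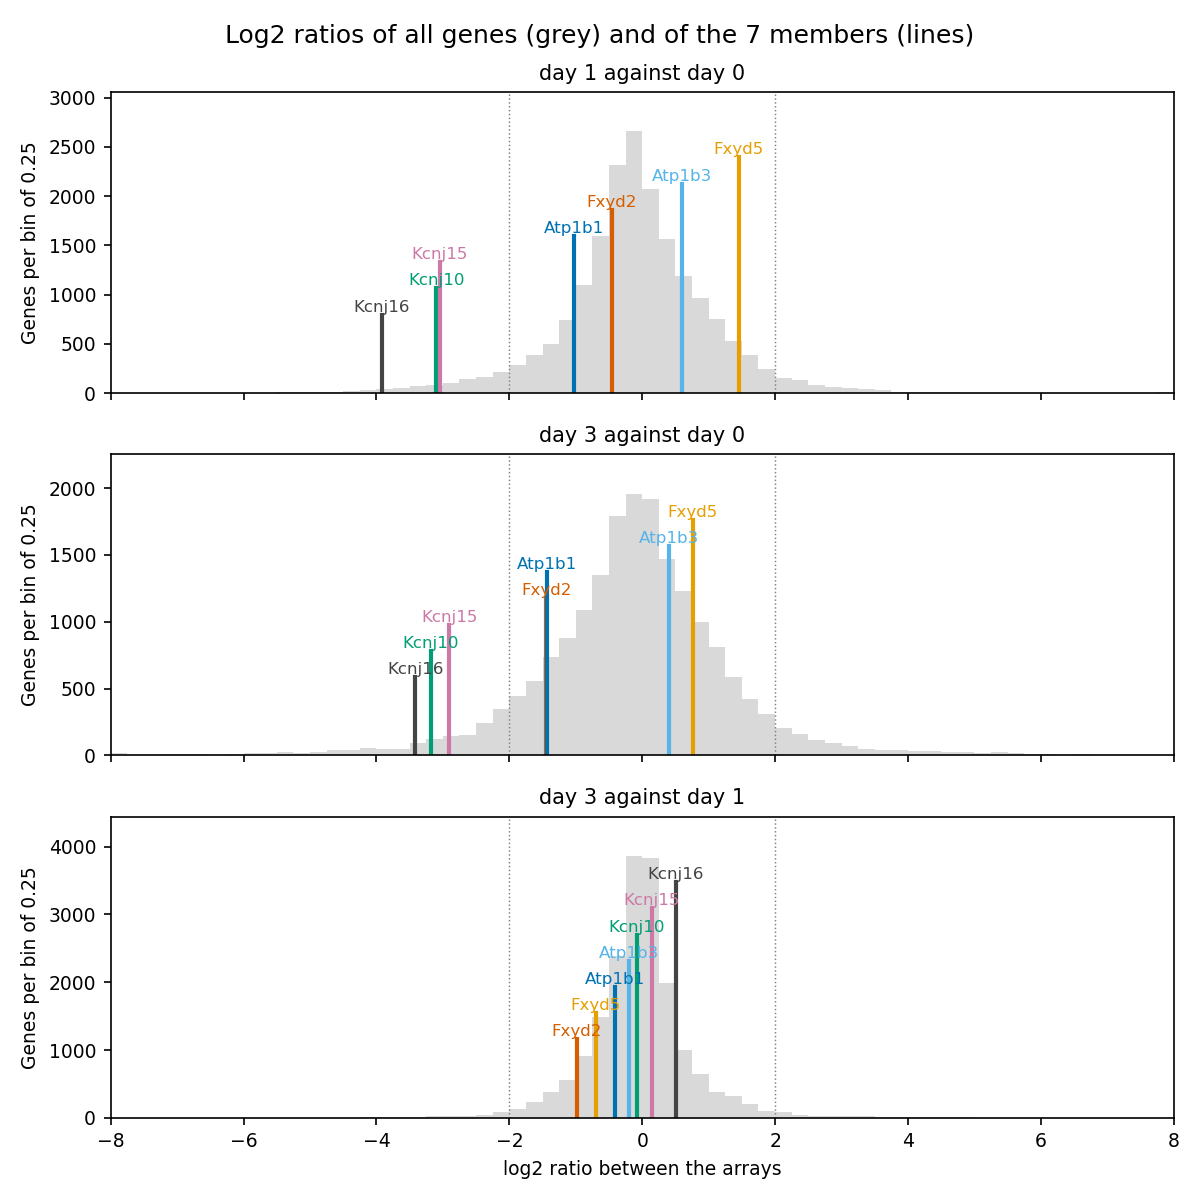
Number of genes (vertical axis) by log2 ratio between arrays (horizontal axis, bins of 0.25), one panel per comparison, with all genes tested in grey, the 7 members as coloured lines and 4-fold as dotted lines. Line heights only separate the names. Kcnj10, Kcnj15 and Kcnj16 lie in the left tail for day 1 and day 3 against day 0, and all 7 members lie within 2-fold for day 3 against day 1.

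Kcnj16 had the widest difference of the 7 genes. The intensity of its brightest probe, at 110887904 to 110887963 of chromosome 11 on mm9, plus strand, was 93521 units on day 0, 7863 on day 1 and 11220 on day 3. These are 79.0, 5.21 and 7.41 times the 75th percentile of their arrays. Kcnj16 was 15.2-fold lower on day 1 and 10.7-fold lower on day 3, log2 ratios of -3.92 and -3.42. Only 112 of the 18905 genes tested, or 0.592%, were lower still on day 1, and 454 of 19102, or 2.38%, on day 3.

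The other Kcnj16 probes, at 110886837 to 110886896 and 110887500 to 110887559, showed the same order of the days. The first gave 6.13, 0.442 and 0.546 times the 75th percentile and the second 5.89, 0.309 and 0.451 times. Over the 3 probes the difference was 13.9- to 19.1-fold on day 1 and 10.7- to 13.0-fold on day 3. All 3 were higher on day 3 than on day 1, by log2 ratios of 0.31 to 0.55. The SD for such a ratio was 0.20 between spots and 0.27 between probes of a gene. The 3 probes were read on the same arrays and are not replicates of a day.

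Kcnj10 encodes the partner of Kcnj16 in the distal convoluted tubule, and is also known from glia. Its 1 probe, at 174303962 to 174304021 of chromosome 1 on mm9, plus strand, gave 5.83 times the 75th percentile on day 0, 0.680 times on day 1 and 0.642 times on day 3. It was high in the fresh cells only, 8.56-fold lower on day 1 and 9.08-fold lower on day 3, log2 ratios of -3.10 and -3.18. Day 1 and day 3 differed by a log2 ratio of -0.08, less than the spread between spots, and its sign turned with scaling on the median spot or on the spike-in controls.

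Kcnj15 encodes the partner of Kcnj16 in the proximal tubule. The brighter of its 2 probes, at 95518884 to 95518943 of chromosome 16 on mm9, plus strand, gave 5.12, 0.621 and 0.685 times the 75th percentile on day 0, day 1 and day 3. The other, at 95519395 to 95519454, gave 0.197, 0.0256 and 0.0281 times. This second probe was dim in culture, with processed intensities of 38.7 on day 1 and 42.5 on day 3. The backgrounds beside it were 38.5 and 48, so its folds rest on signals near the background. Both probes were highest on day 0 and differed between the culture days by log2 ratios of 0.14 and 0.13, less than the spread between spots. Kcnj15 was 7.71- to 8.24-fold lower on day 1 over the 2 probes and 7.04- to 7.47-fold lower on day 3. A clone named 4930414N08Rik, read by a probe on the opposite strand at 95518918 to 95518977, was left out of the gene: its log2 ratios were -1.54 on day 1 and -1.55 on day 3.

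Each of the 3 channel genes was thus past 4-fold on day 1 already, and their log2 ratios on day 3 lay within 0.51 of those on day 1. Within the channels, the log2 ratio of Kcnj16 was 0.83 below that of Kcnj10 and 0.88 below that of Kcnj15 on day 1, and 0.23 and 0.51 below them on day 3. Over the 3 Kcnj16 probes the difference from Kcnj10 ran from -1.15 to -0.70 on day 1 and from -0.52 to -0.23 on day 3. Kcnj15 and Kcnj10 lay 0.06 apart on day 1 and 0.28 apart on day 3.

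Markers of the nephron segments in which these channels work were lower on the same arrays. Lower by 4-fold or more were 12 of 14 proximal tubule markers on day 1 and all 14 on day 3, with median log2 ratios of -3.48 and -5.02. Of 6 distal convoluted tubule markers, 5 were at least 4-fold lower on day 1 and 5 on day 3. Their summed ratio was 58.3 on day 0, 4.18 on day 1 and 2.30 on day 3, and Pvalb, a calcium-binding protein of that segment, was not well above background on day 3. The summed ratio of the 6 loop of Henle markers was 626, 119 and 24.5. Of these 6, 4 were at least 4-fold lower on day 1 and 5 on day 3, while Cldn16 was 1.84-fold higher on day 3 than on day 0. The sums of the proximal tubule, distal convoluted tubule and loop of Henle markers were lower on day 3 than on day 1. Such sums weigh bright markers most, and 1 marker of each list was higher on day 3 than on day 1. The log2 ratios of these were 0.28 for Gatm, 0.04 for Trpm6 and 2.31 for Cldn16. Kcnj16 was 1.42-fold higher on day 3 than on day 1 on its brightest probe. Among the other marker lists, each with all its measured genes well above background on every array, the summed ratio was 17.3, 5.64 and 1.19 for 6 of intercalated cells and 9.02, 1.82 and 2.35 for 5 of podocytes. It was 29.6, 15.8 and 5.64 for 6 endothelial genes, 14.2, 10.7 and 17.2 for 7 macrophage genes and 5.19, 4.27 and 10.8 for 6 fibroblast genes. For 7 genes of principal cells the median ratio was 1.59, 0.515 and 0.390. The part of a changing mix of cells in the values of the channels and the pump was not tested.

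The comparison of day 3 with day 1 asks what differed within the culture period. No member was 4-fold higher or lower, where 1.62% and 1.31% of the 19002 genes tested were, and none was 2-fold higher or lower, where 6.96% and 8.21% of them were. Fxyd2 lay just inside 2-fold, at 1.98-fold lower, and was 2.13-fold lower with the normexp correction. The median log2 ratio of the members was -0.19, beside -0.04 for all genes. All 4 pump genes were lower on day 3 on their brightest probes, from -0.19 for Atp1b3 to -0.99 for Fxyd2, although Atp1b3 stood at 0.07 with scaling on the spike-in controls. Kcnj16 and Kcnj15 were above their day 1 values.

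**Figure D3:**
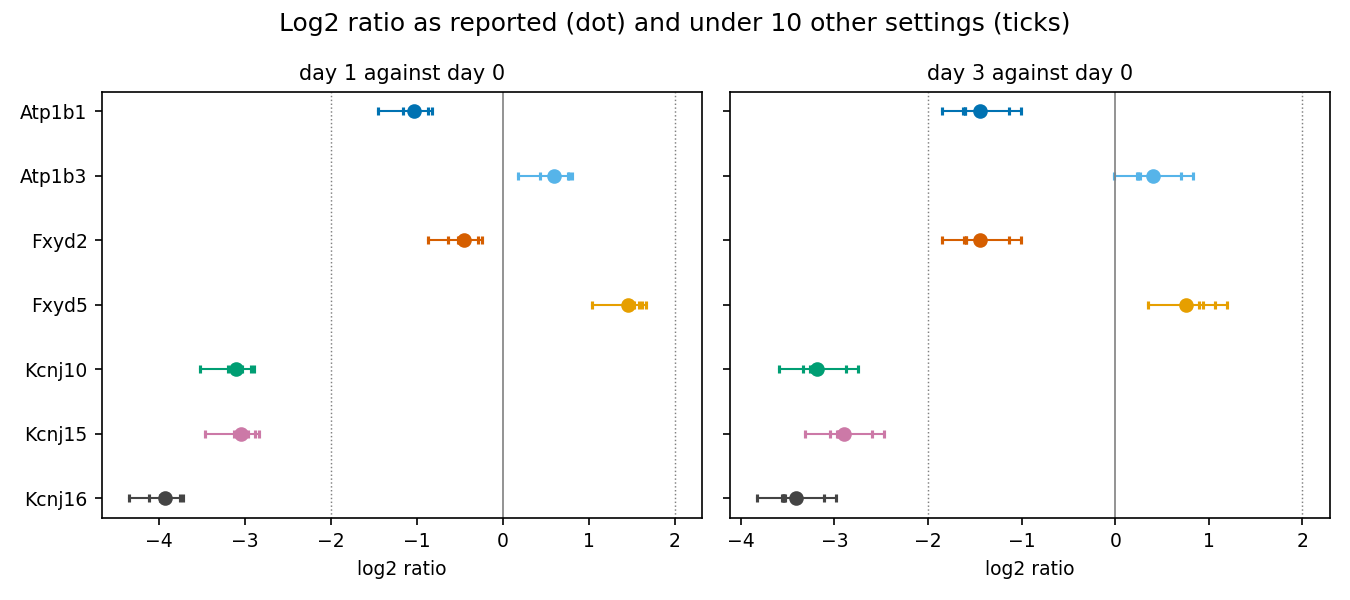
Log2 ratio of each of the 7 genes (horizontal axis) for day 1 against day 0 on the left and day 3 against day 0 on the right, as reported (dots) and under 10 other ways of scaling, correcting or selecting the signal (ticks joined by a line). Dotted lines mark 4-fold. Kcnj10, Kcnj15 and Kcnj16 stay below the line at -2 under each setting, and Atp1b3 is the only gene that reaches 0, on day 3.

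Of the other sodium pump subunits and FXYD proteins, 11 genes were tested and none was 4-fold higher or lower in any of the 3 comparisons. Across these comparisons 1.31% to 7.95% of all genes were 4-fold lower and 1.62% to 5.32% higher. The median log2 ratio of the 11 genes was -0.33 on day 1, -0.57 on day 3 and -0.24 for day 3 against day 1. Under the other settings 0 or 1 of the 11 was at least 4-fold lower on day 3. Fxyd4, the FXYD protein of the collecting duct, gave 7.48, 4.66 and 3.95 times the 75th percentile on day 0, day 1 and day 3, so it was 1.60- and 1.89-fold lower in culture. Fxyd6 gave 2.09, 2.40 and 3.44 times, which was 1.64-fold above day 0 on day 3, and its log2 ratio of 0.20 on day 1 turned to -0.22 with scaling on the reference genes. Atp1b2, a beta subunit best known from brain, was 3.00-fold lower on day 3, log2 ratio -1.59, after -0.48 on day 1.

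A further 5 genes of that list were dim, under 25% of the 75th percentile on every array. Atp1a4, the alpha subunit of sperm, had log2 ratios of 0.08 on day 1 and -0.24 on day 3. Fxyd1, the phospholemman of heart and muscle, had -0.52 and -0.31 on its brightest probe, and -1.28 and -1.50 on its other probe. Fxyd7, known from brain, had 0.10 and -1.02. Fxyd3, a FXYD protein of stomach and other epithelia, had -0.42 and -0.57. Atp1b4 was at the edge of background, with a bound of -0.24 on day 1 and a measured log2 ratio of 0.05 on day 3. On the brightest probes, several of these small values change sign with scaling or background correction: Atp1a4 and Fxyd7 on day 1, and Atp1a4, Fxyd1 and Atp1b4 on day 3.

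Proton-potassium pumps, which are built like the sodium pump and also take a beta subunit, gave 3 tested genes. Atp4a, the catalytic subunit known from the stomach, gave 1.12, 0.290 and 0.195 times the 75th percentile on its brightest probe. By that probe it was 3.86-fold lower on day 1 and 5.75-fold lower on day 3. The other Atp4a probe had log2 ratios of -2.87 on day 1 and -3.40 on day 3, past 4-fold on both days. Its beta subunit Atp4b gave 0.375, 0.325 and 0.0898 times and was 4.17-fold lower on day 3, with a log2 ratio of -0.21 on day 1. Its day 3 log2 ratio of -2.06 lay just past 4-fold and was -1.63 with scaling on the spike-in controls, short of it. Atp12a, the catalytic subunit of the colon and collecting duct, had log2 ratios of -0.12 on day 1, a sign that turned with 3 of the other settings, and 0.84 on day 3.

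**Figure D4:**
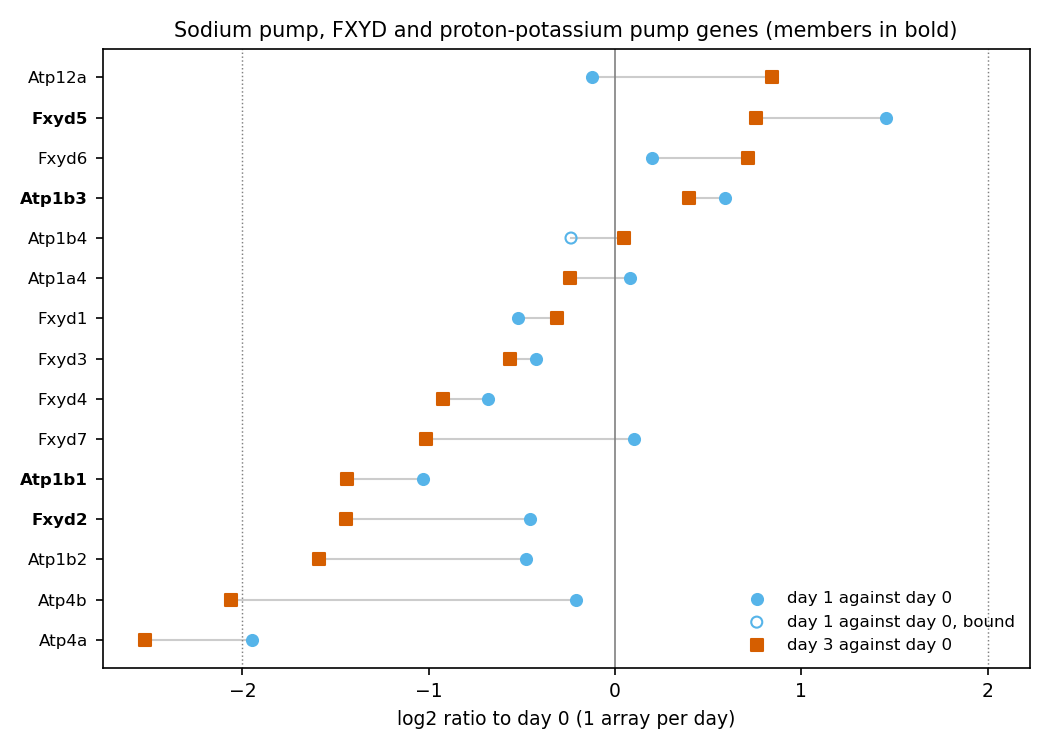
Log2 ratio to day 0 (horizontal axis) on day 1 (circles) and day 3 (squares) for sodium pump, FXYD and proton-potassium pump genes, ordered by the day 3 value, with the members in bold, open symbols for bounds and dotted lines at 4-fold. The plot leaves out 3 genes of the list. Each gene is shown by its brightest probe. Atp4a and Atp4b are the only genes shown past 4-fold, on day 3, Atp4b at -2.06 and short of 4-fold under some other settings.

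Among 26 other potassium channel genes tested, 3 were at least 4-fold lower on day 1, against 5.15% of all genes, and 6 on day 3, against 7.95%. None was 4-fold higher on day 1 or day 3, where 3.37% and 5.32% of all genes were. Under the other settings 2 to 6 were lower on day 1 and 4 to 7 on day 3, and with the mean over all probes 1 was higher on day 3, Kcnk10, a background channel named after its values were seen, whose probes ran from 1.18 to 3.29. The median log2 ratio of these channel genes was -0.51 on day 1 and -0.68 on day 3, beside -3.10 and -3.18 for the 3 channel members. For day 3 against day 1, 24 of them were tested, with a median of -0.06, beside 0.14 for the members. None of the 24 was 4-fold higher or lower, where 1.62% and 1.31% of all genes were. Kcnj1, the apical channel of the loop of Henle and collecting duct that secretes potassium, gave 91.0 times the 75th percentile on day 0, 8.24 times on day 1 and 3.21 times on day 3. It was 11.0-fold lower on day 1 and 28.3-fold lower on day 3, and it also belongs to the loop of Henle markers. Between day 1 and day 3 its log2 ratio was -1.36, where that of Kcnj16 was 0.51.

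Kcnj12, an inward rectifier best known from heart and muscle, gave 0.374, 0.0256 and 0.0370 times the 75th percentile. It was 14.6-fold lower on day 1 and 10.1-fold lower on day 3, and 5.40-fold and 4.64-fold lower with the normexp background correction. Kcne1, an accessory subunit that slows Kcnq1 and is found at the proximal tubule brush border, was 3.48-fold lower on day 1 and 11.5-fold lower on day 3. The brighter of its probes stood at a log2 ratio of -3.52 on day 3. The dimmer one stood at -1.37 on day 1 and -1.41 on day 3, almost level between these days. Kcnq1 itself, the pore subunit, gave 3.74, 2.55 and 2.27 times the 75th percentile, log2 ratios of -0.55 and -0.72.

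Abcc9, a regulatory subunit of ATP-sensitive channels, was 6.78-fold lower on day 3 on its brightest probe, while its 3 probes ran from -2.76 to 0.17 on the log2 scale. Abcc8, the related subunit of the pancreatic beta cell, had -2.08 on day 3, and its other probe 0.51. Kcna5, a voltage-gated channel, was not well above background in culture and was at least 6.21-fold lower on day 1 and at least 9.88-fold lower on day 3. With the normexp correction its log2 ratios were -1.20 and -1.38, short of 4-fold.

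**Figure D5:**
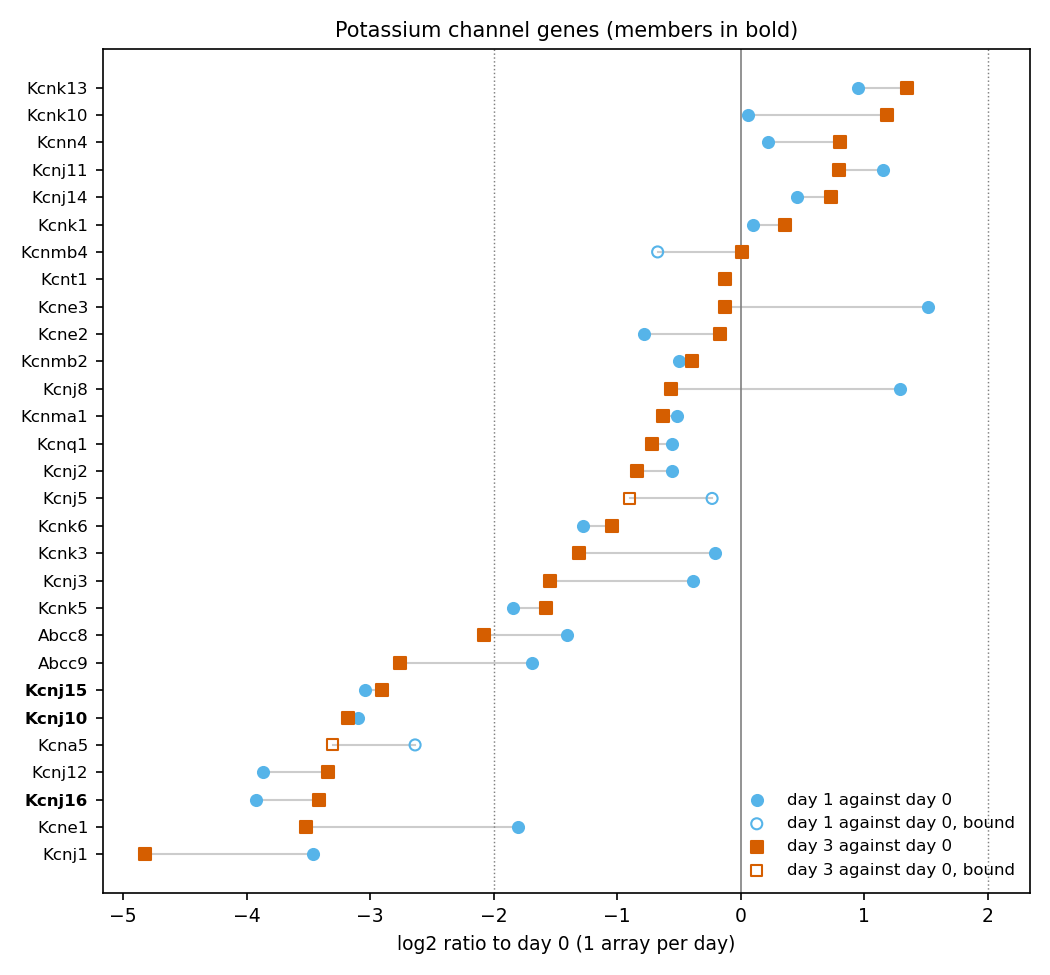
Log2 ratio to day 0 (horizontal axis) on day 1 (circles) and day 3 (squares) for potassium channel genes, ordered by the day 3 value, with the members in bold, open symbols for bounds and dotted lines at 4-fold. Kcnj10, Kcnj15 and Kcnj16 have their circles and squares close together, and so do other channels, among them Kcnj12 and Kcnk5. Kcne1 and Kcnj1 are lower on day 3 than on day 1. Each gene is shown by its brightest probe, and the dimmer Kcne1 probe was almost level between these days.

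Regulators and anchors of the pump and its channels gave 12 tested genes. Of these, 2 were at least 4-fold lower on day 1, against 5.15% of all genes, and 2 on day 3, against 7.95%. None was 4-fold higher on day 1 or day 3, where 3.37% and 5.32% of all genes were. Under the other settings 1 or 2 were lower on day 1 and 1 to 4 on day 3. Their median log2 ratio was -0.25 on day 1 and -0.60 on day 3. Wnk4, a kinase that controls salt transport in the distal convoluted tubule and 1 of the markers of that segment, gave 8.12, 1.52 and 1.05 times the 75th percentile. It was 5.35-fold lower on day 1 and 7.70-fold lower on day 3. Wnk1, a related kinase, was 4.54-fold lower on day 1 and 3.27-fold lower on day 3 on its brightest probe. Its 6 probes ran from -2.18 to -0.16 on day 1, and with the mean over them the log2 ratio was -0.78, short of 4-fold. Sgk1, the aldosterone- and glucocorticoid-induced kinase that stimulates the pump, gave 10.6, 9.58 and 2.40 times the 75th percentile. It was 4.42-fold lower on day 3 after a log2 ratio of -0.15 on day 1, but its other probe gave -0.61 on day 3.

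For each member the genes most like it were sought by the distance between their pairs of log2 ratios, day 1 and day 3 to day 0, among 18322 genes well above background on all arrays. Few genes lay near the channels: 8 within a distance of 0.25 of Kcnj16, 26 of Kcnj10 and 29 of Kcnj15. Within the same distance lay 116 genes for Fxyd5, 257 for Fxyd2, 326 for Atp1b1 and 732 for Atp1b3. Fewer genes have large log2 ratios than small ones. These counts therefore largely restate how far each member lay from no difference, and are no separate result. The nearest genes were Susd3 and Kcnj12 for Kcnj16, Pecr and Csad for Kcnj10, and Irf1 and Ptn for Kcnj15. For the pump genes they were Insl6 and Rfx3 for Atp1b1, Fzd9 and Cul4a for Atp1b3, Upk3a for Fxyd2, and Rad9a and Kti12 for Fxyd5. These distances rest on 3 arrays, and both ratios share the day 0 array. The distance of Kcnj12 also rests on dim signals in culture. With the normexp correction its log2 ratios were -2.43 on day 1 and -2.22 on day 3, and that of Kcnj16 on day 1 was -3.90.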

How the data were processed

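Total RNA of 1 sample per day was amplified and labelled with Cy3 from 1 ug, per the labels' protocols. Per the file headers, Feature Extraction 10.5.1.1 wrote the deposited intensity of each spot, background subtracted and not normalized between arrays; the submitters' processing notes name version 9.1. A multiplicative trend correction was applied on the arrays of day 0 and day 1 and not on day 3, per the file headers. The deposited flags (well above background, saturated, outlier) are of other kind, 0 or 1. The authors' value table is a ratio: all 43379 values per array lay within 0.001 of the processed signal over the 75th percentile, with column medians of 0.187, 0.162 and 0.151.

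Signals were log2 intensities from which the array's 75th percentile over non-control spots was subtracted, outlier spots were left out, spots of a probe were averaged, and the brightest probe stood for a gene. Probes were named by RefSeq accession (26888), symbol (5025) or synonym (832), and 8429 stayed unnamed. A gene was tested where that probe was well above background on at least 1 array of the comparison. A dim side was set to the higher of its own signal and the lowest signal well above background. That lowest signal was 1.14%, 1.06% and 0.669% of the 75th percentile. The result is a bound, and a bound that ran against the measured side was set to no difference. Members were named in full, with every pump, FXYD and proton-potassium pump gene of the lists, up to 4 channels or regulators past 4-fold with the largest difference and 2 with the largest bound; Kcnq1 and Abcc8 were added after their values were seen. The members and lists were chosen with earlier results of these data known, and 3 genes of the pump list and 1 of the most alike genes are not reported here. The scripts were tested on simulated data. Python 3.11.15, numpy 2.4.6, pandas 2.3.3 and limma 3.58.1 in R 4.3.3 were used, the last for the normexp correction with offset 50. The number of arrays limits the precision, and the position of a probe within its transcript was not analysed here.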

Additional observations from a re-analysis of the deposited data

How the results depend on the processing

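No paired analysis was possible because each day has 1 sample. Under 10 other settings (scaling on the median spot, on 12 reference genes or on spike-in controls, quantile normalization, normexp, no trend correction, the mean over all probes, the authors' value table, outlier spots kept, no filter on dim probes) the counts of members past 4-fold did not move. With a 2-fold rule, 1 member (Fxyd5) was higher on day 1 and 5 were lower on day 3. The difference of log2 ratios between Atp1b3 and Atp1b1 ran from 1.60 to 1.80 on day 1 and from 1.84 to 1.87 on day 3, that between Fxyd5 and Fxyd2 from 1.91 to 2.10 and from 2.20 to 2.55, and that between Kcnj16 and Kcnj10 from -0.91 to -0.81 and from -0.35 to -0.22. Every log2 ratio moves by 0.21 on day 1 and 0.31 on day 3 with the median spot, -0.42 and -0.41 with reference genes, and 0.16 and 0.43 with spike-in controls. Kcnj16 thus ran from -4.34 to -3.71 on day 1 and from -3.83 to -2.98 on day 3, Kcnj10 from -3.52 to -2.89 and from -3.59 to -2.75, and Kcnj15 from -3.46 to -2.83 and from -3.31 to -2.47. Over all genes, 394 were 4-fold higher and 1490 lower on day 1 with reference genes (638 and 973 as reported). On day 3, 1615 were higher and 991 lower with spike-in controls and 2325 lower with reference genes (1017 and 1519 as reported). For day 3 against day 1, 162 were lower with spike-in controls and 132 with normexp (249 as reported). The higher genes made up 39.6% of the day 1 calls, 51.7% with the median spot and 20.9% with reference genes, and 40.1% of the day 3 calls, 55.9%, 23.3% and, with spike-in controls, 62.0%. For day 3 against day 1 they made up 55.2%, and 72.6% with spike-in controls.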

Other observations

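Several genes of the channel and regulator lists stood higher on day 1 than on day 0, and their values are given here after they were seen. Kcnj8, the pore subunit of ATP-sensitive channels in smooth muscle, had log2 ratios of 1.29 on day 1 and -0.56 on day 3, and its other probe 0.51 and -0.40. Kcne3, an accessory subunit known from the intestine, had 1.51 and -0.13, and its 2 probes lay between 1.50 and 1.51 on day 1. Both were thus highest on day 1 and at or below the fresh cells on day 3, although Kcne3 on day 3 turned to 0.30 with scaling on the spike-in controls. Kcnk13, a background channel, had 0.95 and 1.35 and was 2.55-fold above day 0 on day 3. Kcnk5, an acid- and alkali-sensitive background channel of the proximal tubule, had -1.84 and -1.58, and its other probe -1.29 and -0.88. With scaling on the reference genes the brightest Kcnk5 probe stood at -2.26 on day 1.

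Among kinases and anchors, Stk39 and Oxsr1, which pass the signal of the Wnk kinases on to salt transporters, had log2 ratios of 0.89 and 0.76 on day 1 and 0.86 and 0.79 on day 3, whereas Wnk4 had -2.42 and -2.95. Nedd4l, a ubiquitin ligase that removes sodium channels from the membrane, had 0.63 and 0.76. Ank3, an ankyrin that ties membrane proteins to the spectrin skeleton, gave 39.7, 17.4 and 10.8 times the 75th percentile. Its log2 ratios were -1.19 and -1.88, and those of its other probe -0.94 and -1.33. Apart from Wnk4, none of these genes was 4-fold from day 0 on its brightest probe, although the 3 probes of Oxsr1 ran from 0.76 to 2.66 on day 1. With scaling on the reference genes Ank3 stood at -2.29 on day 3, past 4-fold. None of the values has a replicate check.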
